A study of Mus musculus with 6 samples.

Results

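Transcripts of 8 genes of the PI3K, Akt and Sgk kinase cascade were followed in the anterior prostate (AP) of mice with an activated *Notch1* transgene and of their controls. The genes were taken by symbol from the table of each mouse, 8 of 54532 rows that carry a gene symbol, and are the catalytic subunit genes *Pik3ca* and *Pik3cb*, the regulatory subunit gene *Pik3r1*, the kinase genes *Akt1* and *Akt2*, *Mtor*, and the kinase genes *Sgk1* and *Sgk3*. All 8 were found. In *OEx* mice *Sgk1* fell 2.50-fold and *Akt1* 2.12-fold, and both passed the test under the deposited scaling between mice. *Pik3ca* and *Pik3r1* were higher at the FDR threshold with changes under 2-fold, *Pik3cb* was lower by the same criterion, and *Akt2* and *Mtor* did not pass the test. *Sgk3*, the least abundant of the set, was 2.58-fold higher in mean level and lay below the filter on low values.

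RNA was sequenced from the whole AP of 3 *OEx* and 3 *Ctrl* male mice, all 20 weeks old. *OEx* mice carried *Pbsn-Cre* and 1 allele of *Rosa26 N1ICD*, so that the *Pbsn* (probasin) promoter drives Cre in prostatic epithelium and Cre switches on the *Notch1* intracellular domain there, and the labels give their genotype as N1ICD-Oex. *Ctrl* mice are *Rosa26 N1ICD*/+ without Cre in the methods of the study and wild type in the labels, so *Ctrl* mice may hold the allele without the Cre that switches it on. The libraries are whole tissue, in which fewer cells of a type and less RNA per cell cannot be told apart.

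PI3K phosphorylates a membrane lipid on receptor signals, and the product recruits *Pdpk1* and the Akt kinases to the membrane. Akt and the related Sgk kinases are activated by *Pdpk1* and by the mTOR complex that contains *Rictor*, and Akt in turn relieves the brake on the mTOR complex that contains *Rptor*, which promotes protein synthesis. In the prostate this cascade is known for driving epithelial growth, and *Sgk1* is a classic steroid-induced gene.

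Values are FPKM, fragment counts scaled to exon length and library size, and are given in the order of replicates 1, 2 and 3. Recovered depth was 14762182 to 18650962 reads on annotated genes per mouse. *Notch1*, part of which the transgene encodes, was at 41.9, 47.6 and 78.9 FPKM in *OEx* mice and at 5.18, 5.55 and 3.34 FPKM in *Ctrl* mice. The prostate genes *Pbsn* and *Hoxb13* were present in all 6 mice. In both groups replicates 1 and 2 were closer to each other (Pearson r across genes 0.991 in each group) than to replicate 3 (0.951 to 0.966), and *Ctrl* replicate 3 had a summed level of 8 seminal vesicle genes of 16128 FPKM, against 2.74 and 4.36 FPKM in the other *Ctrl* mice. The deposited FPKM carry a scaling between mice beyond library size, since the divisor behind a mouse's values was 1.22 to 1.35 times its read total in the *OEx* group and 0.726 to 0.815 times the total in the *Ctrl* group.

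The test was limma's moderated test on log2(FPKM + 1) over 12553 genes whose mean reached 1 FPKM, 7 of the 8 genes among them. A gene was called with an FDR under 0.05 and a change over 2-fold. None of the 7 was called higher, where 12.8% of all tested genes were, and 2 of 7 were called lower, where 15.5% of all were. At the FDR threshold alone 2 of 7 were higher, beside 30.9% of all tested genes, and 3 of 7 were lower, beside 36.5%. The groups did not overlap for 5 of the 7 genes, which is near the share among all tested genes, 72.5%. The median log2 fold change of the 7 was -0.35, beside -0.07 for all tested genes. Values of a log2 fold change are on the log2(FPKM + 1) scale, which understates the change of genes at low FPKM.

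*Pik3ca* encodes p110 alpha, the catalytic subunit used by growth factor receptors, and lies at chr3:32397671-32468486 of GRCm38 on the plus strand. It was at 6.23, 6.04 and 6.72 FPKM in *OEx* mice and at 3.91, 3.32 and 3.64 FPKM in *Ctrl* mice. Every *OEx* mouse stood above every *Ctrl* mouse, with means of 6.33 ± 0.350 and 3.63 ± 0.296 (SD, n = 3 mice in each group). The log2 fold change was 0.66 (SE 0.0925, limma FDR = 0.000838). *Pik3cb* encodes p110 beta, a catalytic subunit that also takes signals from G protein-coupled receptors (chr9:99036654-99140621, minus strand). It stood at 4.66, 4.39 and 5.06 FPKM in *OEx* mice, below the 8.07, 7.74 and 6.80 FPKM of *Ctrl* mice. The groups did not overlap, and the log2 fold change was -0.58 (SE 0.0981, limma FDR = 0.00198), a direction that turned to 0.090 (limma FDR = 0.281) when the values were rescaled to library totals.

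*Pik3r1* encodes the p85 alpha regulatory subunit, which stabilises the catalytic subunit and docks it on receptors (chr13:101680563-101768217, minus strand). Its levels were 6.78, 6.82 and 7.09 FPKM in *OEx* mice and 4.18, 4.79 and 6.14 FPKM in *Ctrl* mice. The *OEx* mice were close together, whereas *Ctrl* replicate 3 came near to them without reaching them. The log2 fold change was 0.40 (SE 0.130, limma FDR = 0.0309). This was the highest FDR of the 5 genes that passed, and leaving out any 1 mouse other than *Ctrl* replicate 3 gave a limma FDR of 0.0711 to 0.0903, whereas without *Ctrl* replicate 3 it was 0.00306.

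*Akt1* encodes the Akt kinase expressed in most tissues and tied to growth and survival (chr12:112653821-112674884, minus strand). It was read from 2842 to 5005 reads per mouse. Its levels were 40.2, 42.3 and 38.4 FPKM in *OEx* mice and 90.9, 94.3 and 70.8 FPKM in *Ctrl* mice. All 3 *OEx* mice were below the lowest *Ctrl* mouse, which was replicate 3, and the means were 40.3 ± 1.94 and 85.4 ± 12.7 FPKM (SD, n = 3). The log2 fold change was -1.05 (SE 0.125, 95% confidence interval -1.35 to -0.75, limma FDR = 0.000419). Without *Ctrl* replicate 2 the log2 fold change was -0.98 and no longer over 2-fold, and without *Ctrl* replicate 3 it was -1.18. Rescaled to library totals it was -0.28 and did not pass the test (limma FDR = 0.0527).

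*Akt2* encodes the Akt kinase best known for insulin-driven glucose uptake (chr7:27591552-27640826, plus strand). It stood at 9.996, 11.3 and 11.8 FPKM in *OEx* mice and at 16.2, 17.2 and 10.6 FPKM in *Ctrl* mice. *Ctrl* replicate 3 fell among the *OEx* mice, so the groups overlapped. The log2 fold change was -0.35 (SE 0.181, limma FDR = 0.124, exact permutation p = 0.3), with a 95% confidence interval of -0.79 to 0.08. Without *Ctrl* replicate 3 it was -0.56 with a limma FDR of 0.00338, and the part of that mouse's seminal vesicle RNA in this was not tested. Under library totals the difference was 0.37 in the other direction (limma FDR = 0.0515).

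*Mtor* encodes the kinase at the core of both mTOR complexes (chr4:148448611-148557683, plus strand). It was at 4.43, 4.45 and 6.27 FPKM in *OEx* mice and at 6.06, 6.42 and 3.58 FPKM in *Ctrl* mice. The third replicate of each group departed from the other two, upward in *OEx* and downward in *Ctrl*, and the ranges overlapped. The log2 fold change was -0.05 (SE 0.218, 95% confidence interval -0.57 to 0.47, limma FDR = 0.843, exact permutation p = 0.9), and it was 0.61 under library totals (limma FDR = 0.0191). With replicate 3 of both groups left out, a comparison chosen after the values were seen, it was -0.41 (limma FDR = 0.00281).

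*Sgk1* encodes a serum- and glucocorticoid-induced kinase that raises sodium transport and shares substrates with Akt (chr10:21882184-21999903, plus strand). It was the most abundant of the 8 genes in every mouse, with 4920 to 10436 reads. Its levels were 65.9, 61.3 and 55.6 FPKM in *OEx* mice and 161, 155 and 140 FPKM in *Ctrl* mice. The highest *OEx* mouse was well under the lowest *Ctrl* mouse, and the means were 60.9 ± 5.18 and 152 ± 10.9 FPKM (SD, n = 3). The log2 fold change was -1.31 (SE 0.1005, 95% confidence interval -1.55 to -1.07, limma FDR = 8.19e-05). The fold criterion was no longer met under library totals (-0.53, limma FDR = 0.00507), under library totals without the 20 most abundant genes (-0.97) or with limma-voom on recovered reads (-0.53), although the FDR stayed under 0.05 in each.

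*Sgk3* encodes the family member that is targeted to endosomes by a lipid-binding domain and is activated downstream of PI3K (chr1:9798107-9900845, plus strand). It stood at 0.771, 0.727 and 0.720 FPKM in *OEx* mice and at 0.257, 0.308 and 0.294 FPKM in *Ctrl* mice, from 220, 238 and 186 reads against 46, 57 and 64 reads. The groups were far apart relative to the spread within each, 0.739 ± 0.0274 against 0.286 ± 0.0263 FPKM (SD, n = 3), although the level was low throughout. When the FPKM filter was replaced by a minimum of 10 reads per mouse, its difference of 0.44 on the log2(FPKM + 1) scale had a limma FDR of 0.000963. On recovered reads limma-voom, which scales by library totals and adds no pseudocount of that size, gave a log2 fold change of 2.15 (FDR = 5.58e-05). With 3 mice against 3, the exact two-sided permutation test over 20 assignments gave 0.1, the smallest p it can give, for *Sgk3* and for each of the 5 tested genes whose groups did not overlap.

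**Figure D1:**
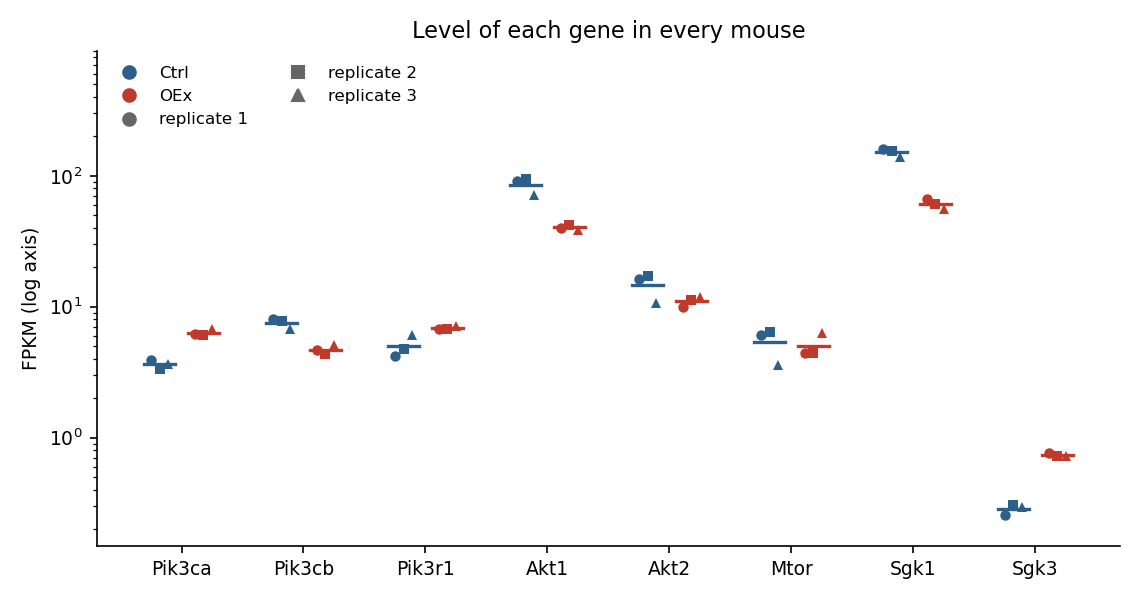
FPKM of the 8 genes in each mouse on a log axis, *Ctrl* in blue and *OEx* in red, with a symbol for each replicate number and a line at the group mean. *Sgk1* and *Akt1* were lower in all *OEx* mice, *Sgk3* was higher at under 1 FPKM, and *Ctrl* replicate 3 (triangle) fell among the *OEx* mice for *Akt2* and below them for *Mtor*.

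The promoters of the 2 called genes are shown because the *Notch1* intracellular domain acts with the DNA-binding protein RBPJ and because *Sgk1* is known for its steroid induction. Sequences are RefSeq windows of GRCm38.p6 that cover 250 bases before a transcript start, written in the direction of the gene. A pair of motifs was searched on both strands, the RBPJ core TGGGAA and the steroid receptor hexamer AGAACA, and matches are in capitals. The RBPJ core was found in 21.6% and the hexamer in 16.1% of 32817 windows of all genes. Only some windows of each gene are printed, 1 of 2 for *Akt1* and 2 of 6 for *Sgk1*. They include the only *Akt1* window with an RBPJ core and the *Sgk1* window with the most hexamers. The printed *Akt1* window lies at chr12:112674885-112675134 on the minus strand. The printed *Sgk1* windows lie at chr10:21993640-21993889 and chr10:21994416-21994665 on the plus strand, the second of them before the most downstream annotated start.
*Akt1*: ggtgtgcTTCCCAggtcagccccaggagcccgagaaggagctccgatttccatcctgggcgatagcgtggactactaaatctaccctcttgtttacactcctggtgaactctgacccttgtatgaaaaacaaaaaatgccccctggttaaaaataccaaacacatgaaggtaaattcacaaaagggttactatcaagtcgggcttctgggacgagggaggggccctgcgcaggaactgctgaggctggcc
*Sgk1*, upstream window: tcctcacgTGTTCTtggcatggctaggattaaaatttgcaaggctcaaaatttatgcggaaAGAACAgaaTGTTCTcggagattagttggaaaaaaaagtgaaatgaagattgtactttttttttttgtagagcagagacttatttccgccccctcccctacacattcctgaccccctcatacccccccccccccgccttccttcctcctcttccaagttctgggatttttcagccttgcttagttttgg
*Sgk1*, downstream window: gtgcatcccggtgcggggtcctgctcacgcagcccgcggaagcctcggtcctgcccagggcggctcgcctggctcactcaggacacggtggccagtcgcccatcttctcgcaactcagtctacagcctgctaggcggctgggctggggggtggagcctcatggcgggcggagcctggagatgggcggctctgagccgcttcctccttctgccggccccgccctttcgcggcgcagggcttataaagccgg
The RBPJ core was in 1 of 2 windows of *Akt1* and in 2 of 4 windows of *Akt2*, and in none of those of *Sgk1*, *Mtor*, *Pik3ca*, *Pik3cb* or *Pik3r1*. The hexamer was in 3 of 6 windows of *Sgk1* and in none of the other genes with a window. The upstream *Sgk1* window held 3 matches, 2 of them facing each other across 3 bases. A match describes letters in a window and is no measured binding site.

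In both groups *Sgk1* was the most abundant transcript, followed by *Akt1* and then *Akt2*, and *Sgk3* was the least abundant. Between them the order changed. In *Ctrl* mice *Pik3cb* came next, *Mtor* and *Pik3r1* overlapped in their ranges, and *Pik3ca* was below *Pik3r1* in every mouse but overlapped with *Mtor*. In *OEx* mice *Pik3r1* came next and above *Pik3ca*, *Mtor* overlapped with both *Pik3ca* and *Pik3cb*, and *Pik3cb* was lowest of these.

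Ratios of a pair of genes within a mouse do not move with the scaling between mice, and 5 were compared by exact two-sided permutation tests. *Pik3cb* stood at 0.748, 0.727 and 0.753 times *Pik3ca* in *OEx* mice and at 2.06, 2.33 and 1.87 times *Pik3ca* in *Ctrl* mice. The more abundant catalytic subunit transcript of the pair was thus *Pik3ca* in each *OEx* mouse and *Pik3cb* in each *Ctrl* mouse, a 2.80-fold difference in the ratio. *Sgk3* was 0.0117, 0.0119 and 0.0130 times *Sgk1* in *OEx* mice and 0.00159, 0.00198 and 0.00210 times in *Ctrl* mice, which is a 6.47-fold difference. *Akt2* was 0.248, 0.268 and 0.308 times *Akt1* in *OEx* mice and 0.178, 0.182 and 0.150 times in *Ctrl* mice, so *Akt2* was 1.61-fold higher relative to *Akt1* in *OEx* mice. The ratio of *Sgk1* to *Akt1* differed by 1.19-fold, with 1.45 to 1.64 in *OEx* mice and 1.65 to 1.98 in *Ctrl* mice. For these 4 ratios the groups did not overlap and the exact permutation p was 0.1, or 0.125 after Benjamini-Hochberg adjustment over the 5, so none passed 0.05. The ratio of *Pik3r1* to *Pik3ca* overlapped between the groups (exact permutation p = 0.3).

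Shares within families, which were added after the values were seen, described the same shift. *Pik3cb* made up 33.8% ± 3.50 of the summed FPKM of the 4 class I catalytic genes in *OEx* mice and 59.2% ± 3.64 in *Ctrl* mice (SD, n = 3). The share of *Pik3ca* was 45.5% ± 4.06 in *OEx* and 28.5% ± 1.72 in *Ctrl*. *Pik3r1* made up 28.5% ± 2.92 of the 3 class IA regulatory genes in *OEx* mice and 14.9% ± 3.86 in *Ctrl* mice. *Sgk1* was at 98.8% and 99.8% of the 3 Sgk genes. None of the 4 shares overlapped between groups (exact permutation p = 0.1, the smallest possible).

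**Figure D2:**
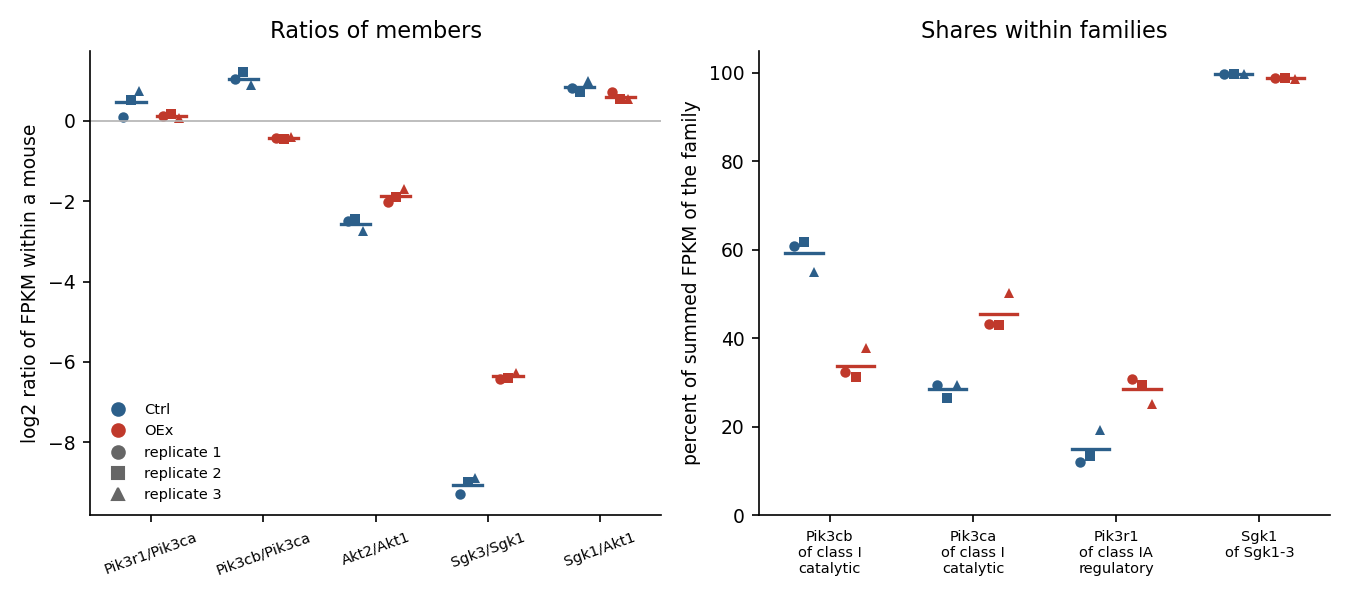
Left, log2 ratio of the FPKM of 2 genes within each mouse; right, percent of the summed FPKM of a family held by 1 gene, with *Ctrl* in blue, *OEx* in red and lines at group means. The ratio of *Pik3cb* to *Pik3ca* was above 0 in all *Ctrl* mice and below 0 in all *OEx* mice, and the *Pik3r1* to *Pik3ca* ratios overlapped.

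The sign of several single-gene changes depended on how mice were scaled to each other. Under library totals the median log2 fold change of all tested genes was 0.57 in place of -0.07, and 3902 genes were called higher and 538 lower in place of 1604 and 1941. *Pik3ca* at 1.32 and *Pik3r1* at 1.07 were then called higher. A rescaling multiplies all genes of a mouse by the same factor. Values taken against the all-gene median can therefore change only through the 1 added to the FPKM, and their closeness is no test of the scaling. *Akt1* stood at -0.98 relative to this median under the deposited scaling and at -0.85 under library totals, and *Sgk1* at -1.23 and -1.10. *Pik3ca* stood at 0.74 and 0.75, *Pik3r1* at 0.47 and 0.50, and *Pik3cb* at -0.51 and -0.48.

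**Figure D3:**
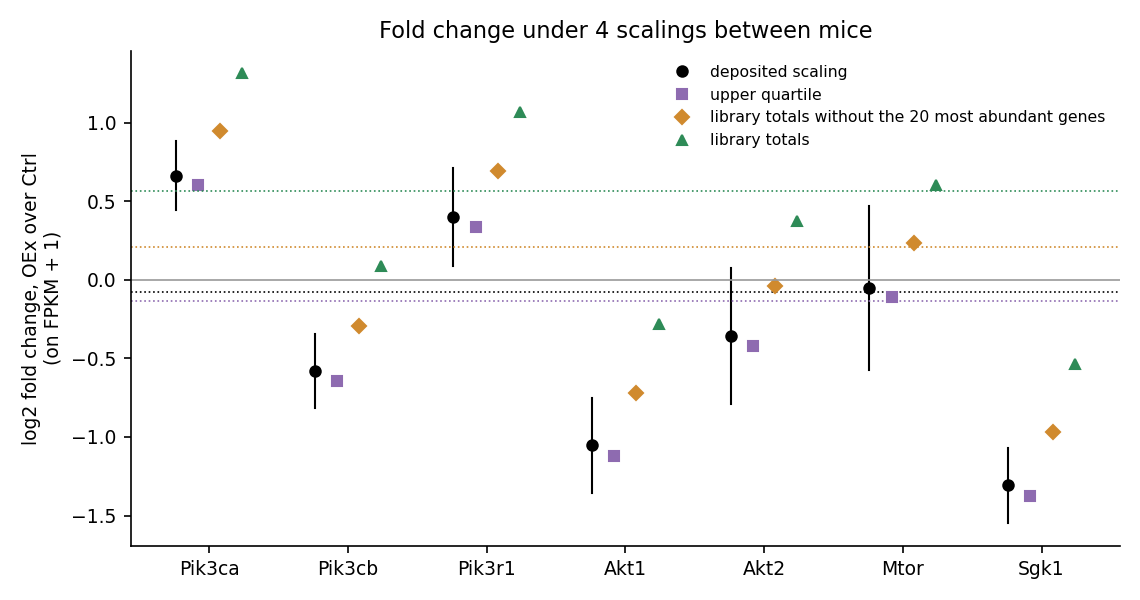
log2 fold change of the 7 tested genes, *OEx* over *Ctrl*, under 4 scalings between mice, with the 95% confidence interval for the deposited scaling; dotted lines mark the median of all tested genes under each scaling. *Akt1* and *Sgk1* were below 0 under all 4, *Pik3ca* and *Pik3r1* above 0 under all 4, and *Pik3cb*, *Akt2* and *Mtor* crossed 0 under library totals.

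The cell type markers also moved between the groups. The summed level of 7 epithelial markers was 1008 to 1328 FPKM in *OEx* mice and 1620 to 1840 FPKM in *Ctrl* mice, with 4 of the 7 called lower, 3 of which mark basal cells, while 1 of the others was higher at the FDR threshold alone. That of 4 prostate luminal genes was 2258 to 5028 FPKM against 15209 to 19188 FPKM. The 9 smooth muscle and fibroblast markers summed to 316 to 613 FPKM in *OEx* and 858 to 1757 FPKM in *Ctrl*, and the 4 of 9 called lower are the smooth muscle genes. The 3 collagen genes of that list did not pass the test and were at 33.9 to 84.1 FPKM in *OEx* replicates 1 and 2, at 2.95 to 6.04 FPKM in *OEx* replicate 3 and at 6.72 to 18.9 FPKM in *Ctrl* mice. The 3 endothelial markers summed to 4.99 to 6.05 and 10.8 to 14.6 FPKM. The 6 immune markers summed to 8.09 to 32.4 FPKM in *OEx* and 8.18 to 15.8 FPKM in *Ctrl*. Their part in the lower *Akt1* and *Sgk1* was not tested.

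The other genes of the cascade were taken from a list of 88, of which 76 passed the filter. Of these 9 were called higher (11.8%, beside 12.8% of all tested genes) and 10 lower (13.2%, beside 15.5%). At the FDR threshold alone 22 were higher (28.9%, beside 30.9%) and 30 lower (39.5%, beside 36.5%), so the list was near the background in each count. Its median log2 fold change was -0.13. Under library totals 26 genes of the list were called higher and 3 lower, where 31.1% of all tested genes were called higher and 4.29% lower. The sign of each of the 19 called genes was the same under every alternative run.

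Upstream, among 7 tested PI3K subunits outside the 8 genes, 2 were called higher and none lower, beside 12.8% and 15.5% of all tested genes. Under library totals 3 were called higher and none lower, beside 31.1% and 4.29%. *Pik3r2* and *Pik3r3* were lower at the FDR threshold alone under the deposited scaling and not under library totals (0.04 and 0.07). *Pik3c2a*, a class II PI3K of endocytic membranes, was at 6.83, 6.58 and 6.499 FPKM in *OEx* mice and at 0.474, 0.770 and 0.591 FPKM in *Ctrl* mice, a difference of 2.25 on the log2 scale with a limma FDR of 2.64e-05. *Pik3c3*, the class III kinase Vps34 of autophagy and endosomes, was at 26.2, 25.9 and 34.1 FPKM against 8.54, 9.13 and 8.86 FPKM (1.58, limma FDR = 7.96e-05). Both were higher in every *OEx* mouse than in any *Ctrl* mouse. None of the 7 receptors and adaptors was called under the deposited scaling. At the FDR threshold alone 3 were higher and 2 lower, beside 30.9% and 36.5% of all tested genes. Under library totals 4 were called higher, beside 31.1% of all. The most abundant, the adaptor *Grb2*, changed by -0.35 (limma FDR = 0.0171) under the deposited scaling and of 0.40 under library totals.

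None of the 6 tested phosphatases was called under the deposited scaling. At the FDR threshold alone 1 was higher and none lower, beside 30.9% and 36.5% of all tested genes. Under library totals 2 were called higher and none lower, beside 31.1% and 4.29%. *Inppl1*, the most abundant of the class and a lipid 5-phosphatase, stood at -0.34 and did not pass (limma FDR = 0.0551). It was at 0.41 under library totals (limma FDR = 0.0134). *Pdpk1*, the kinase that activates both Akt and Sgk, was higher by 0.46 on the log2 scale (limma FDR = 0.00691), with 6.36 ± 0.432 FPKM in *OEx* and 4.35 ± 0.491 FPKM in *Ctrl*.

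The 2 scaffold proteins that define the mTOR complexes moved apart under the deposited scaling. *Rictor* was at 3.47, 3.39 and 4.18 FPKM in *OEx* mice and at 0.892, 0.972 and 0.758 FPKM in *Ctrl* mice, and thus rose by 1.32 on the log2 scale (limma FDR = 0.000128). *Rptor* was at 2.19, 2.46 and 3.09 FPKM against 4.62, 4.83 and 3.53 FPKM, a change of -0.57 (limma FDR = 0.0121) that was 0.03 under library totals. *Akt1s1*, the Akt substrate PRAS40 that inhibits the *Rptor* complex, fell from 58.8 ± 1.17 to 22.6 ± 0.792 FPKM (log2 fold change -1.34, limma FDR = 3.22e-05). Of the 8 tested subunits, *Rictor* was the only one called higher and *Akt1s1* the only one called lower under the deposited scaling, beside 12.8% and 15.5% of all tested genes.

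Among 17 tested regulators of the *Rptor* complex, 5 were called lower and none higher, beside 15.5% and 12.8% of all tested genes, and 12 were lower and 2 higher at the FDR threshold alone, beside 36.5% and 30.9%. Under library totals the class was no longer one-sided, with 2 called higher and 2 lower, beside 31.1% and 4.29% of all tested genes. At the FDR threshold alone 7 were then higher and 4 lower, and the share of all tested genes at that threshold is not given for this scaling. *Ddit4*, the stress- and steroid-induced inhibitor REDD1, was at 16.6, 19.4 and 18.6 FPKM in *OEx* mice and at 166, 167 and 167 FPKM in *Ctrl* mice. It had the largest change of the list, a fold change of -3.13 in log2 units (limma FDR = 1.44e-05). The other 4 are subunits of the Ragulator complex, which anchors the Rag GTPases and thereby mTOR to lysosomes. *Lamtor2* stood at 35.6, 34.8 and 41.2 FPKM in *OEx* mice and at 152, 152 and 153 FPKM in *Ctrl* mice (log2 fold change -2.01). *Lamtor4* changed by -1.35 and *Lamtor1* by -1.26, and *Lamtor5*, outside the rule for naming and chosen after its value was seen, by -1.13. Under library totals *Ddit4* (-2.37) and *Lamtor2* (-1.24) were still called, and *Lamtor4* and *Lamtor5* had a limma FDR of 0.0599 and 0.0502.

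Of 14 tested substrates and outputs, 2 were called higher and 3 lower, beside 12.8% and 15.5% of all tested genes. Under library totals 5 were called higher and 1 lower, beside 31.1% and 4.29% of all. The *Sgk1* substrates *Ndrg1* and *Ndrg2* moved in opposite directions. *Ndrg2* was at 80.1, 80.7 and 93.6 FPKM in *OEx* mice and at 8.40, 10.1 and 14.0 FPKM in *Ctrl* mice, a rise of 2.88 on the log2 scale (limma FDR = 4.39e-05). *Ndrg1* was at 1.12, 1.02 and 0.907 FPKM against 6.20, 6.12 and 7.03 FPKM (-1.89, limma FDR = 3.18e-05). *Bad*, a death-promoting protein that Akt inactivates, fell to 12.4 ± 1.501 from 35.2 ± 2.66 FPKM (log2 fold change -1.43). The other called genes of the list were named after their values were seen and are *Eif4ebp1* at -1.24 and *Eif4ebp3* at 1.04, both repressors of cap-dependent translation, and the S6 kinase gene *Rps6kb1* at 1.02.

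*Scnn1a* encodes the alpha subunit of the epithelial sodium channel that *Sgk1* keeps at the membrane. It was at 14.7, 14.7 and 11.9 FPKM in *OEx* mice and 4.64, 4.62 and 4.38 FPKM in *Ctrl* mice (log2 fold change 1.41). It was the only gene of 7 tested in its class called under the deposited scaling, where 12.8% of all tested genes were called higher. Under library totals 2 were called higher, beside 31.1% of all. Genes that steroids induce, as they do *Sgk1*, did not move as one under the deposited scaling. Of 6 tested, 2 were called higher and 1 lower, beside 12.8% and 15.5% of all tested genes. Under library totals 3 were called higher and none lower, beside 31.1% and 4.29%. At the FDR threshold alone 5 were then higher and none lower, and the share of all genes at that threshold is not given for that scaling. *Fkbp5*, a chaperone of steroid receptors, was at 40.3, 40.3 and 32.2 FPKM in *OEx* mice against 8.17, 9.55 and 8.22 FPKM in *Ctrl* mice and rose by 2.00 on the log2 scale (limma FDR = 4.01e-05). The small GTPase gene *Rhou* was likewise higher, by 2.07 on the log2 scale. *Dusp1*, a phosphatase of MAP kinases, was at 13.3, 14.5 and 7.09 FPKM in *OEx* mice and 24.9, 28.6 and 65.6 FPKM in *Ctrl* mice (-1.61, limma FDR = 0.0120), with *Ctrl* replicate 3 far above the other two, and its limma FDR under library totals was 0.142. Exons of *Pik3c2a*, *Pik3r2*, *Pik3r3*, *Inppl1*, *Rps6kb1*, *Rptor*, *Akt1s1*, *Lamtor1*, *Bad*, *Eif4ebp3*, *Ndrg1* and *Dusp1* overlap another annotated gene. The sources used here do not state whether counting used strand, so their values may include reads of that gene. For *Pik3r3*, *Eif4ebp3* and 1 of the 2 genes that overlap *Akt1s1*, the overlap is on the same strand, where counting by strand would not separate the reads.

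**Figure D4:**
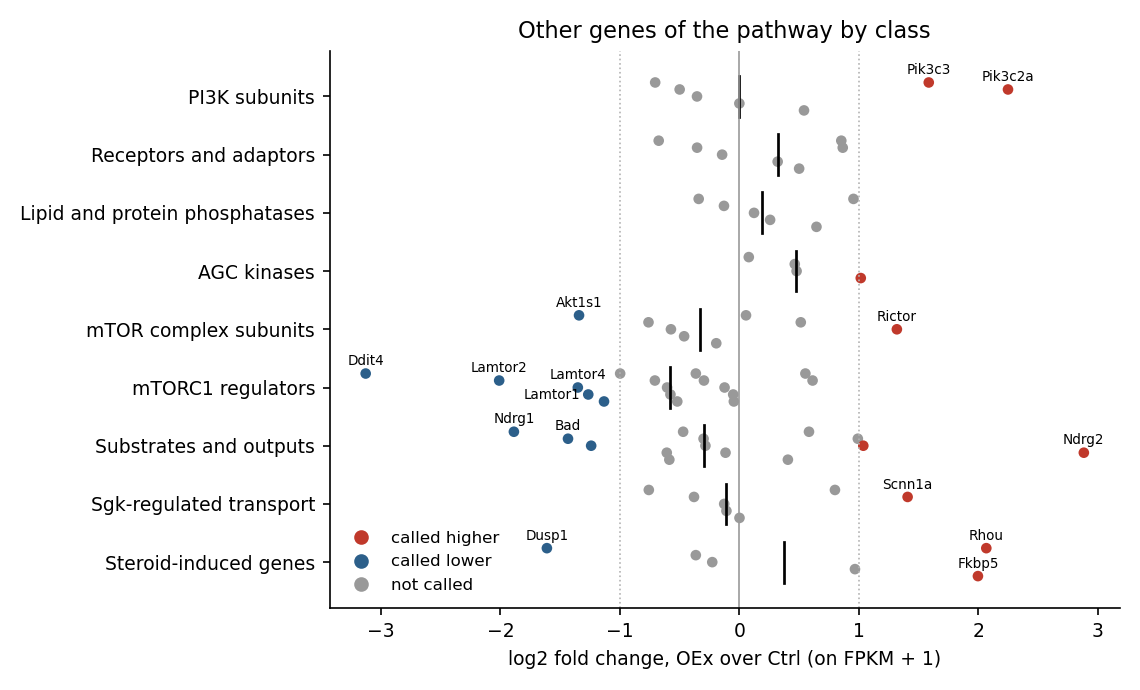
log2 fold change, *OEx* over *Ctrl* under the deposited scaling, of the 76 tested genes of the list by class, with called genes in colour, a bar at the median of each class and dotted lines at a 2-fold change. Calls among mTORC1 regulators were all lower under this scaling, whereas under library totals 2 were higher and 2 lower. Those among 7 PI3K subunits were all higher, 2 under this scaling and 3 under library totals. Of all tested genes 12.8% were called higher and 15.5% lower under this scaling, and 31.1% and 4.29% under library totals.

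The genes with levels most like those of *Akt1* over the 6 mice, among 1255 genes of similar abundance and by Euclidean distance between centred log2(FPKM + 1) profiles, were *Mogs* (0.159) and *Prkcsh* (0.177). For *Sgk1* they were *Adipor2* (0.144) and *Pdlim4* (0.184) among 703 genes.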

How the data were processed

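Total RNA of the AP was sequenced on an Illumina HiSeq. The authors deposited FPKM per gene for each mouse, and the submitters' processing notes name CASAVA, HISAT2 2.0.5, featureCounts 1.5.0-p3 and StringTie 1.3.3b. The genome build is not given in the sources used here, and rows were placed on the GENCODE annotation of GRCm38 by symbol (53636 of 55076 rows). The 544 rows without a gene name held 0.632% to 1.21% of the summed FPKM and were left out. Reads were recovered from FPKM and exon length, and 96.9% to 97.5% of values under 1000 reads came out within 0.05 of a whole number.

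For the test between groups, log2(FPKM + 1) was fitted by limma 3.58.1 (R 4.3.3) with group as the only term, eBayes with an intensity trend and Benjamini-Hochberg adjustment over 12553 genes whose mean reached 1 FPKM. Fits and read recovery were tested on simulated data. Single values and ratios were tested by exact permutation. Other work used scipy 1.17.1, pandas 2.3.3 and numpy 2.4.6 in Python 3.11.15, and plots were drawn in matplotlib 3.10.9. Alternatives were other scalings, filters and pseudocounts, limma-voom on recovered reads, a fit without the trend, a replicate block and each mouse left out. The members and lists were chosen with earlier results of these data known. From the list, the 15 called genes with the largest change, the most abundant gene of a class without a call, and *Pdpk1*, *Rptor* and *Rictor* were named; some items of the rule are not reported here. The labels do not say whether mice were handled together, so p-values measure the spread between these 6 mice. Replicates 1 and 2 of each group differed by more than counting noise and were counted separately. Their mean chi-square per gene was 3.67 in *OEx* and 2.93 in *Ctrl*, against 50.4 to 86.7 for pairs with replicate 3. A difference beyond counting noise does not show that they are independent mice, and whether they are related was not tested. Every FDR given here treats them as independent, which limits how far it can be read.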

Additional observations from a re-analysis of the deposited data

How the results depend on the processing

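Under library totals 2 of the 7 tested genes were called higher and 0 lower, and 1 was lower at the FDR threshold alone, and on the pathway list 26 genes were called higher and 3 lower. Of all tested genes, 31.1% were called higher and 4.29% lower in that run, and the share at the FDR threshold alone is not given. With limma-voom on recovered reads, where *Sgk3* was tested too, 3 of the 8 genes, *Sgk3* among them, were called higher and 0 lower. This stood beside 39.2% and 5.03% of all tested genes. By FDR alone 5 of the 8, again with *Sgk3*, were higher and 1 lower. The share of all genes at that threshold is not given for this run, in which the median log2 fold change of all tested genes was 0.74. Of the 88 genes on the list, not all of which were tested, 29 were called higher and 3 lower, beside the same 39.2% and 5.03%. Library totals without the 20 most abundant genes gave 0 called lower, beside 9.07% of all tested genes. On the list 15 genes were then called higher, beside 19.8% of all. The sign reversed for *Pik3cb* (0.090 and 0.11) and *Akt2* (0.37 and 0.41) under library totals and limma-voom, and for *Mtor* under those (0.61 and 0.73) and without the 20 most abundant genes (0.23). The cause was not tested.

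Leaving out 1 mouse at a time, the number called lower was 1 to 2 of the 7, beside 15.2% to 15.6% of all tested genes. The number higher by FDR alone was 1 to 2, and the share of all genes at that threshold is not given for these runs. *Mtor* ranged from -0.27 to 0.075. Its sign reversed at 0.019 without *OEx* replicate 1 and at 0.016 without *OEx* replicate 2. It also reversed at 0.040 without *Ctrl* replicate 1 and at 0.075 without *Ctrl* replicate 2. Without replicate 3 of either group, an alternative chosen after seeing the data, 5 of the 7 were lower by FDR alone. The share of all genes at that threshold is not given for this run. With the fold criterion added, 14.1% of all tested genes were called higher and 16.1% lower. The run rests on replicates 1 and 2, which were close to each other in both groups, so its spread within groups is small. A pseudocount of 0.1 moved the log2 difference of the *Sgk3* to *Sgk1* ratio from 2.69 to 2.44. Same-numbered mice did not deviate together (correlations -0.20, -0.19 and -0.31), so the numbers were not taken as pairs. With the replicate block, the number higher by FDR alone was 1, since the limma FDR of *Pik3r1* was 0.05004, just above the threshold, and it changed no other call among the 7 genes. Without a filter on low values the limma FDR of *Pik3r1* was 0.0566. *Sgk3* rests on 46 to 238 reads per mouse.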

Other observations

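Further up the cascade, genes outside the rule for naming were looked at after their values were seen. The insulin receptor gene *Insr* was at 6.93, 7.06 and 8.87 FPKM in *OEx* mice and at 4.001, 4.11 and 3.19 FPKM in *Ctrl* mice, which is 0.85 higher on the log2 scale (limma FDR = 0.00127). The related growth factor receptor gene *Igf1r* was at 6.33, 6.70 and 8.60 FPKM against 3.85, 3.70 and 2.94 FPKM (0.87, limma FDR = 0.00168). Both were higher in all *OEx* mice, also under library totals (1.52 each). Their docking protein gene *Irs1* changed by -0.67 (limma FDR = 0.0391) with overlapping groups, and by -0.17 under library totals. The other regulatory subunit genes of class IA PI3K, *Pik3r2* (-0.70) and *Pik3r3* (-0.50), were lower where *Pik3r1* was higher, with limma FDRs of 0.00540 and 0.00695, and stood at 0.04 and 0.07 under library totals. The sodium channel subunit gene *Scnn1b* changed by -0.76 (limma FDR = 0.00910), opposite to *Scnn1a*, and by -0.35 under library totals. Exons of *Irs1*, *Pik3r2* and *Pik3r3* overlap another annotated gene, as above.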
